A study of Homo sapiens with 9 samples.

Results

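The acute phase proteins of the liver were examined in HepG2 cells given recombinant SPARC. The set holds 10 genes, taken by symbol: CRP, SAA1, SAA2, SAA4, HP, HPX, ORM1, ORM2, LBP and SOCS3. Of these, 8 had a transcript cluster (the probe set for 1 gene) under their own symbol, out of 17687 genes in all, and each of the 8 had 1 cluster. SAA2 and SAA4 had none under their symbols and were not analysed here. HepG2 is an established human liver cancer line that makes many plasma proteins. The 3 groups were cells without treatment, cells with 200 ng/ml of recombinant SPARC and cells with 800 ng/ml, all profiled at 24 h. Of the 2 doses, the protocol for RNA extraction names 800 ng/ml alone, while 200 ng/ml appears in the labels of the samples and in the study's design. SPARC is a secreted glycoprotein that binds collagen in the extracellular matrix. There were 3 arrays in every group, each of total RNA, and the labels name no vehicle for the untreated cells and no source of the protein. They do not state whether the replicates were grown as separate cultures, and p-values here cover the spread among these arrays alone, which could be technical. A culture of 1 tumour line also lacks the Kupffer cells that supply cytokines to hepatocytes in the liver.

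In an infection or injury, macrophages release interleukin-6, interleukin-1 and tumour necrosis factor, and hepatocytes answer by changing the plasma proteins they secrete. Interleukin-6 binds its receptor together with the shared subunit gp130, JAK kinases then phosphorylate STAT3, and STAT3 works with C/EBP factors and NF-kappaB at the promoters of the acute phase genes. Proteins that rise are called positive acute phase proteins and those that fall, such as albumin, negative ones. SOCS3 is itself switched on by STAT3 and blocks gp130 and its kinases, so it serves as a quick readout of this signal and as its brake. HepG2 cells are a common model of this response.

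The DNA just upstream of the members' starts is shown because the signal described above acts there. RefSeq (GRCh38.p14) held a window for 5 of the 10 members, with 6 windows since SOCS3 has 2. The sequences are the 250 bases before the start, 5′ to 3′ on the strand of the gene, for CRP, HPX, ORM1 and the upstream start of SOCS3. Capitals mark matches on either strand to 4 motifs: the STAT motif TTCNNNGAA, the C/EBP motif TTGCNNAA, the interleukin-6 core CTGGGA and the TATA box TATAAA.
CRP, chr1:159714590-159714839, minus strand: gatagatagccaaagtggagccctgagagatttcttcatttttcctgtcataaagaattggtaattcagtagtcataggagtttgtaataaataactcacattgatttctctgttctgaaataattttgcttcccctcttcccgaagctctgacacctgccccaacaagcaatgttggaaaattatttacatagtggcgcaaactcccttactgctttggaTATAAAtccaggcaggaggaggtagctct
HPX, chr11:6440988-6441237, minus strand: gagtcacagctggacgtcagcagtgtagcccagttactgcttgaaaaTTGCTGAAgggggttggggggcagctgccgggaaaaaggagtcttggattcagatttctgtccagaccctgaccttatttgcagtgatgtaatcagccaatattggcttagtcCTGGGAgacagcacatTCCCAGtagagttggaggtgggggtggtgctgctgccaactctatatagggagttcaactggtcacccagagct
ORM1, chr9:114322848-114323097, plus strand: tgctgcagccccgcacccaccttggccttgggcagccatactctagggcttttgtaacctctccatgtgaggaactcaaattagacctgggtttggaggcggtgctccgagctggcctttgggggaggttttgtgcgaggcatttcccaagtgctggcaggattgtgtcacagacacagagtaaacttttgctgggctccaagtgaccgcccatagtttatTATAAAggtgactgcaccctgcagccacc
SOCS3, chr17:78360926-78361175, minus strand: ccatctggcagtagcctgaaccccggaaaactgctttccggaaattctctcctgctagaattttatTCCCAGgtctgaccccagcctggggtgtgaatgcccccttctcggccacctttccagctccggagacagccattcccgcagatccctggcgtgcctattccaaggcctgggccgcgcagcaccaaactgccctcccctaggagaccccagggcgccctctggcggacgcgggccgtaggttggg
A TATA box lay 29 bases before the start in both CRP and ORM1. Counted anywhere in the window and on either strand, a TATA match was present in 2 of the 6 member windows. The same count gave 10.7% of all 35116 windows of this length. HPX held 1 C/EBP match, 203 bases before its start, and 2 matches to the interleukin-6 core, 90 and 74 bases before it. SOCS3 held 1 core match, 184 bases before its upstream start. The window of SAA4, not printed because its transcript was not analysed here, held 3 C/EBP matches, 236, 69 and 54 bases before its start. The C/EBP motif was thus present in 2 of the 6 member windows and 9.05% of all windows, and the core in 2 of 6 and 28.7%. The STAT motif matched none of the 6 member windows and 6.57% of all windows, which says only that these letters are not in these 250 bases. No 2 matches in the printed windows overlapped.

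Before the values, 1 array needs naming. Untreated replicate 2 had a Pearson correlation of 0.889 to 0.919 with each other array across genes, whereas the other 8 arrays had 0.979 to 0.991 among themselves. In it, markers of blood and Kupffer cells were on average at 0.80 on the log2 scale when set against the mean level of the 8 remaining arrays, fibroblast and stellate cell markers at 0.78 and endothelial markers at 0.59, while the 8 measured hepatocyte markers were at −0.26. In the other 8 arrays those 4 lists lay between −0.17 and 0.15. Not every marker of these lists was high in it: CD68 had a log2 signal of 7.15 in untreated replicate 2, LYZ 11.37 and ACTA2 7.35, each the lowest of its 9 arrays. The cholangiocyte list was at 0.0135 in that array and between −0.058 and 0.073 in the other 8. Of its markers, KRT7 at 7.55 was at its highest there, while KRT19, SOX9 and EPCAM were each at their lowest. Dim genes as a whole were higher in that array, with median deviations of 0.41 and 0.56 from untreated replicates 1 and 3 in the dimmest and the next of 4 equal parts of all genes. In 800 ng/ml replicates 2 and 3 the neural and glial list was at 1.45 in both, against −0.61 to −0.22 in the other 7 arrays. That list was chosen with earlier results of these data known, so its height there is no independent result. Not every gene of it followed the mean: AQP4 was highest in untreated replicate 2, at 4.26, against 4.19 and 4.21 in 800 ng/ml replicates 2 and 3. Of the hepatocyte markers, ALB lay between 12.14 and 12.46 and SERPINA1 between 12.07 and 12.33 in all 9 arrays, in log2 signal. These are bright genes, and some other markers of the list shifted more in untreated replicate 2. AFP at 8.16 and FGB at 8.76 were there at their lowest of the 9 arrays, and TTR at 8.11 was at its highest. In such bulk RNA, fewer cells of a type and less RNA per cell cannot be told apart. Because the deposited table has no detection calls, no gene can be said to lie above or below background.

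None of the 8 measured members passed the test in any comparison. With untreated cells as the baseline, 0 of 8 members passed at the lower dose and 0 of 8 at the higher, and between the doses again 0 of 8 (limma across all 17687 genes, Benjamini-Hochberg adjusted p under 0.05). The share of all genes that passed was 0% in each comparison. At an unadjusted p under 0.05 there were also 0 of 8 members in each comparison, against 1.78% of all genes at 200 ng/ml, 4.17% at 800 ng/ml and 2.41% between the doses. The median log2 difference of the members was 0.11 at 200 ng/ml, −0.054 at 800 ng/ml and −0.055 between the doses. Over all genes it was 0.027, 0.044 and 0.013 in the same comparisons. Without untreated replicate 2 the members' medians were 0.021, −0.0016 and −0.055, and 0 of 8 passed in any comparison.

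**Figure D1:**
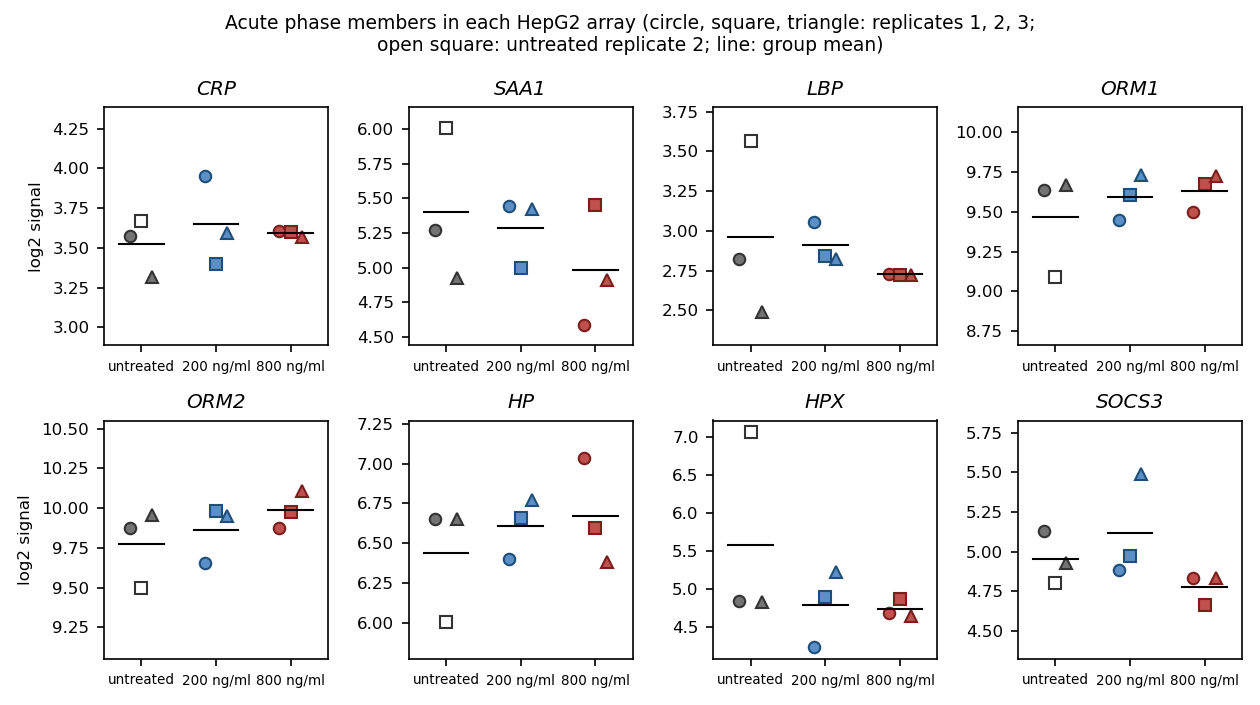
Log2 signal of the 8 measured members in each of the 9 arrays, by dose of SPARC; symbols are replicates and lines are group means, and the vertical axis differs between panels. The open square, untreated replicate 2, is the lowest value for HP, ORM1 and ORM2 and the highest for SAA1, LBP and HPX.

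CRP, SAA1 and LBP stand for the most strongly inducible plasma proteins. CRP, a pentraxin that binds phosphocholine on microbes and dying cells, had log2 signals of 3.58, 3.67 and 3.32 in untreated replicates 1, 2 and 3. It had 3.95, 3.40 and 3.60 at 200 ng/ml and 3.61, 3.60 and 3.57 at 800 ng/ml. The 3 groups overlapped, and the 800 ng/ml values lay inside the range of the untreated ones. The log2 difference from untreated cells was 0.13 at 200 ng/ml (95% interval −0.31 to 0.56) and 0.069 at 800 ng/ml (−0.37 to 0.51), with limma adjusted p of 0.966 and 0.868. As ratios, the upper ends of these intervals are 1.48 and 1.42, so a larger increase of the CRP signal than this lies outside them. By its untreated signal CRP was among the dimmest 25% of genes.

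SAA1, serum amyloid A, is carried on high-density lipoprotein and draws in leukocytes. Its log2 signals were 5.27, 6.01 and 4.93 in untreated replicates 1, 2 and 3, then 5.45, 4.998 and 5.42 at 200 ng/ml and 4.59, 5.45 and 4.91 at 800 ng/ml. The highest value belonged to untreated replicate 2, and the spread within the 800 ng/ml group was as wide as 0.86 on the log2 scale. The difference from untreated cells was −0.12 at 200 ng/ml (interval −0.78 to 0.55) and −0.42 at 800 ng/ml (interval −1.09 to 0.25), with limma adjusted p of 0.972 and 0.659. When untreated replicate 2 was left out, the differences were 0.19 and −0.12 (limma, adjusted p = 0.795 and 0.992), so the sign at 200 ng/ml turned. SAA1 and SAA2 are near-identical neighbours, so probes of the SAA1 cluster may also bind SAA2 transcripts.

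LBP, which binds bacterial lipopolysaccharide and hands it to CD14, had signals near the lower end of the arrays, whose lowest log2 signals were 2.19 to 2.41. It had log2 signals of 2.82, 3.57 and 2.49 in untreated replicates 1, 2 and 3, 3.06, 2.84 and 2.83 at 200 ng/ml and 2.73, 2.72 and 2.72 at 800 ng/ml. All 3 arrays at 800 ng/ml lay below all 3 at 200 ng/ml, but inside the untreated range. The log2 difference between the doses was −0.18 (interval −0.74 to 0.37, limma adjusted p = 0.999). In the 8 arrays without untreated replicate 2, it was −0.18 (interval −0.46 to 0.091, limma adjusted p = 0.488). Against untreated cells it was −0.052 at 200 ng/ml and −0.23 at 800 ng/ml, and without untreated replicate 2 it turned to 0.25 and 0.069, with no call.

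ORM1, ORM2, HP and HPX code for abundant carriers in plasma. ORM1 and ORM2 both make orosomucoid, or alpha-1-acid glycoprotein, which binds basic drugs and dampens inflammation. ORM1 had log2 signals of 9.64, 9.09 and 9.67 in untreated replicates 1, 2 and 3, 9.45, 9.61 and 9.73 at 200 ng/ml and 9.50, 9.67 and 9.72 at 800 ng/ml. ORM2 had 9.88, 9.50 and 9.96 in untreated replicates 1, 2 and 3, 9.65, 9.98 and 9.95 at 200 ng/ml and 9.87, 9.98 and 10.11 at 800 ng/ml. Both were lowest in untreated replicate 2, and in the other 8 arrays ORM1 stayed within 0.28 and ORM2 within 0.45 on the log2 scale. They are neighbouring near-identical genes whose probes may bind both transcripts, and their signals correlated at r = 0.924 over the 9 arrays and 0.832 over the 8 without untreated replicate 2.

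The log2 difference of ORM1 from untreated cells was 0.13 at 200 ng/ml and 0.17 at 800 ng/ml, and that of ORM2 was 0.087 and 0.21, with limma adjusted p from 0.662 to 0.970. Without untreated replicate 2 the ORM1 differences were −0.059 and −0.022 and those of ORM2 −0.054 and 0.068 (limma, adjusted p from 0.885 to 0.999). In that fit ORM1 had the narrowest intervals of the set. For ORM1 at 800 ng/ml the interval ran from a ratio of 0.805 to 1.20, and for ORM2 from 0.845 to 1.30. With all 9 arrays the same intervals ran from 0.819 to 1.54 for ORM1 and from 0.855 to 1.56 for ORM2.

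HP, haptoglobin, captures free haemoglobin. Its log2 signals were 6.65, 6.01 and 6.65 in untreated replicates 1, 2 and 3, 6.40, 6.66 and 6.77 at 200 ng/ml and 7.04, 6.60 and 6.38 at 800 ng/ml. The highest value, and the lowest outside untreated replicate 2, were both found at 800 ng/ml, where the range reached 0.66. The log2 difference from untreated cells was 0.17 at 200 ng/ml (interval −0.37 to 0.71) and 0.23 at 800 ng/ml (interval −0.31 to 0.77), with limma adjusted p of 0.966 and 0.678. When untreated replicate 2 was left out, it was −0.042 and 0.019 (limma, adjusted p = 0.950 and 0.9996). HPR, the neighbouring haptoglobin-related gene, may share probes with HP and had log2 signals of 6.16, 5.62 and 6.13 in untreated cells, 6.14, 6.16 and 5.81 at 200 ng/ml and 6.39, 6.33 and 6.14 at 800 ng/ml.

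HPX, hemopexin, binds free haem and returns it to the liver. In untreated replicates 1, 2 and 3 its log2 signals were 4.84, 7.06 and 4.83. They were 4.23, 4.90 and 5.23 at 200 ng/ml and 4.68, 4.87 and 4.65 at 800 ng/ml. Untreated replicate 2 thus lay 2.23 above the mean of the other untreated arrays, and 0.351% of all genes deviated by more in that array. The other 8 arrays spanned 0.99 on the log2 scale. The log2 difference from untreated cells was −0.79 ± 0.50 (SE) at 200 ng/ml and −0.84 ± 0.50 at 800 ng/ml (limma, adjusted p = 0.966 and 0.659). With all 9 arrays HPX had the widest intervals of the 8 members. In the 8 arrays without untreated replicate 2, it was −0.049 ± 0.24 and −0.10 ± 0.24 (limma, adjusted p = 0.954 and 0.995).

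**Figure D2:**
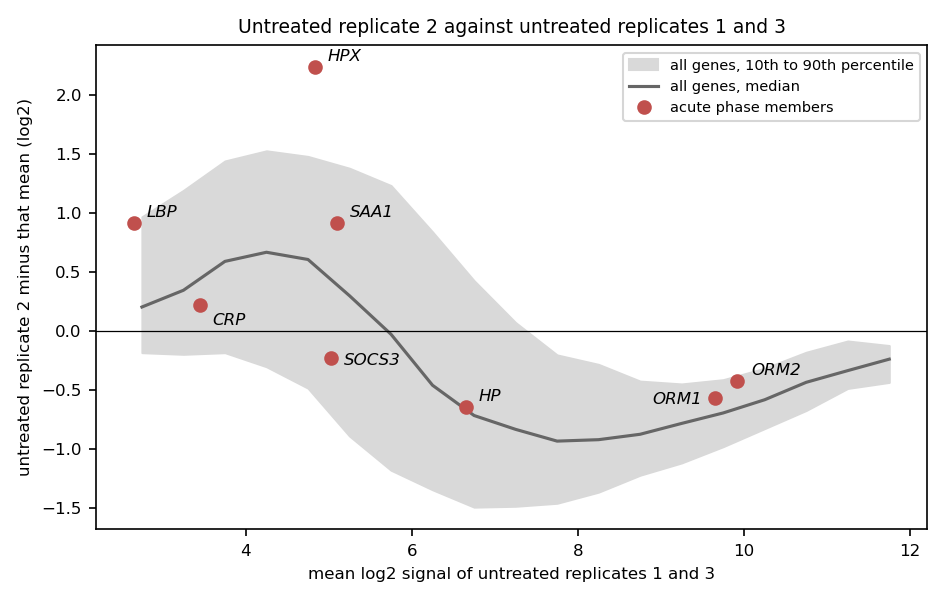
Deviation of untreated replicate 2 from the mean of untreated replicates 1 and 3 (vertical axis, log2) against that mean (horizontal axis, log2 signal), for the members as points and for all genes as the median and the 10th to 90th percentile in bins of signal. HPX, at 2.23, lies above the band of all genes, and ORM1, ORM2 and HP lie below 0, as does the median gene of their signal.

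The deviation of untreated replicate 2 depended on the signal of a gene. Over 4 equal parts of all genes from the dimmest to the brightest, its median deviation from replicates 1 and 3 was 0.41, 0.56, −0.53 and −0.83. LBP and CRP, in the dimmest part, were at 0.91 and 0.22. SAA1, HPX and SOCS3, in the next, were at 0.91, 2.23 and −0.23, so SOCS3 lay on the other side of 0 from the median of its part. HP was at −0.64, and ORM1 and ORM2 in the brightest part were at −0.57 and −0.42. The part that the other features of this array play in the HPX value was not tested.

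SOCS3, the inhibitor of gp130 signalling, had the largest difference between the doses of any member. It had log2 signals of 4.83, 4.66 and 4.83 across replicates 1, 2 and 3 at 800 ng/ml, against 4.88, 4.97 and 5.49 at 200 ng/ml. Untreated replicates 1, 2 and 3 had 5.13, 4.80 and 4.93. Every 800 ng/ml array was thus below every 200 ng/ml array, and 200 ng/ml replicate 3 stood above all other arrays. The log2 difference between the doses was −0.34 (interval −0.79 to 0.12), a ratio of 0.791 (limma, unadjusted p = 0.132, adjusted p = 0.999), which misses the threshold. With 1 array left out it ran from −0.15, without 200 ng/ml replicate 3, to −0.45, without 200 ng/ml replicate 1. Without untreated replicate 2, which narrows the shared estimate of spread, the unadjusted p was 0.0673 and the adjusted p was 0.357 (limma). With array weights the difference was −0.47 (limma, unadjusted p = 0.0103, adjusted p = 0.157). In that setting 3193 of all 17687 genes had an unadjusted p under 0.05 between the doses. The weights were uneven, at 10.7 for untreated replicate 1 and 0.0399 for untreated replicate 2.

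SOCS3 and LBP were 2 of 8 members with every 800 ng/ml array below every 200 ng/ml array, and 9.72% of all genes did the same. No member had groups apart against untreated cells at 200 ng/ml, where 6.98% of all genes did, or at 800 ng/ml, where 11.2% did. Without untreated replicate 2, LBP lay above the 2 remaining untreated arrays at 200 ng/ml, as did 13.8% of all genes, and SOCS3 lay below them at 800 ng/ml, as did 11.8%. Against untreated cells SOCS3 had a log2 difference of 0.16 (interval −0.30 to 0.62) at 200 ng/ml and −0.18 (interval −0.63 to 0.28) at 800 ng/ml (limma, adjusted p = 0.966 and 0.699). The value at 800 ng/ml was −0.089 without untreated replicate 1, −0.25 without untreated replicate 2, −0.029 after quantile normalization and −0.35 with array weights (limma, unadjusted p = 0.0193, adjusted p = 0.1505). With array weights 3691 of all 17687 genes had an unadjusted p under 0.05 at 800 ng/ml against untreated. The comparisons with untreated cells share their 3 untreated arrays.

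**Figure D3:**
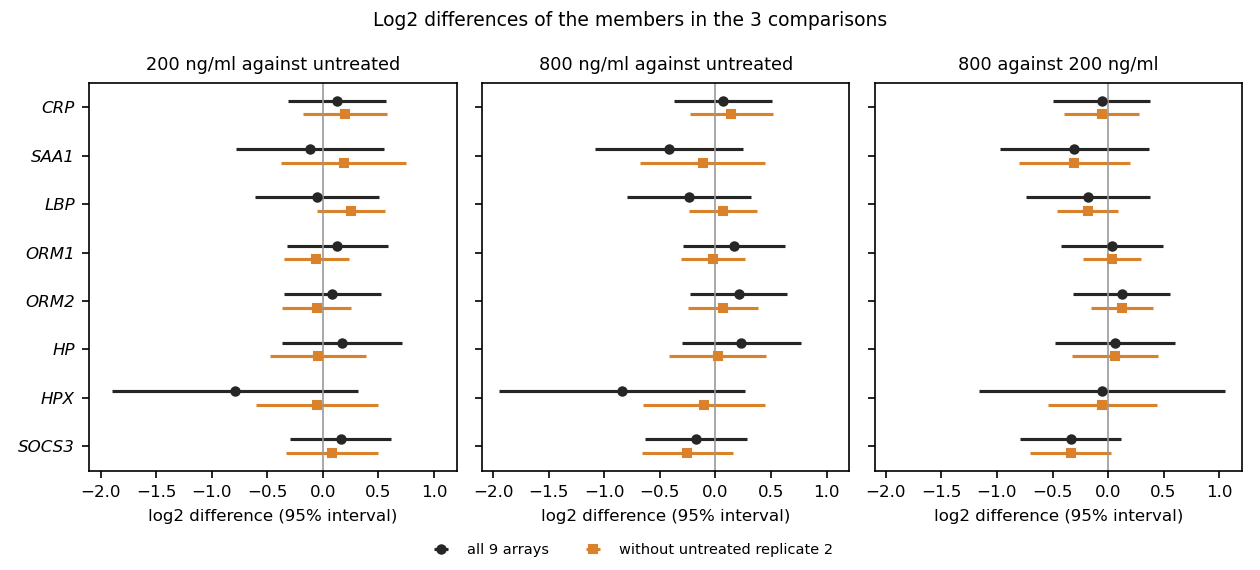
Log2 differences of the 8 measured members with 95% intervals from limma, for 200 ng/ml against untreated, 800 ng/ml against untreated and 800 against 200 ng/ml; circles are all 9 arrays and squares are the fit without untreated replicate 2. Every interval includes 0, and that of HPX at 800 ng/ml narrows to −0.65 to 0.45 without that array, against −1.95 to 0.26 with it.

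Other plasma proteins of the response were counted from a list. Of 22 measured positive acute phase genes, 0 passed the test in any comparison. At 200 ng/ml 14 of the 22 were above untreated cells and at 800 ng/ml 16 were, against 54.1% and 54.6% of all genes. Without untreated replicate 2, 9 of the 22 were above untreated cells at either dose, against 47.2% and 48.2% of all genes. The list median at 800 ng/ml was 0.17, and −0.013 without untreated replicate 2. At an unadjusted p under 0.05 the list gave 1 gene above untreated at 200 ng/ml, 1 below untreated at 800 ng/ml and 1 below 200 ng/ml at 800 ng/ml. Over all genes those shares were 0.741%, 2.64% and 1.29%.

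The gene above untreated was PLA2G2A, a secreted phospholipase that attacks bacterial membranes. It had log2 signals of 9.88, 10.25 and 10.32 at 200 ng/ml, against 9.75, 9.07 and 9.87 in untreated cells, a difference of 0.59 ± 0.24 (SE, limma, adjusted p = 0.966). Without untreated replicate 2 it was 0.34 ± 0.16 with an unadjusted p of 0.0564 (SE, limma, adjusted p = 0.452). In that fit 0 genes of the list were higher at an unadjusted p under 0.05, against 5.29% of all genes. The gene below in both other comparisons was LCN2, lipocalin, which starves bacteria of iron. It had 3.85, 4.06 and 4.03 in untreated cells, 3.83, 4.14 and 4.11 at 200 ng/ml and 3.25, 3.83 and 3.49 at 800 ng/ml. Its difference was −0.46 ± 0.20 from untreated and −0.51 ± 0.20 from 200 ng/ml (SE, limma, adjusted p = 0.659 and 0.999). The LCN2 groups did not overlap in either comparison, though the highest 800 ng/ml array, replicate 2, lay just below the lowest array of each other group. Over all genes 5.14% lay apart and lower at 800 ng/ml against untreated, and 9.72% against 200 ng/ml. SERPINA3, alpha-1-antichymotrypsin, was chosen after its values were seen because it lay apart from untreated cells at both doses. It was higher there than in every untreated array, as were 3.92% of all genes at 200 ng/ml and 6.08% at 800 ng/ml. It had 9.57, 9.05 and 9.54 in untreated cells, 9.75, 9.96 and 9.73 at 200 ng/ml and 9.70, 9.83 and 9.90 at 800 ng/ml, and did not pass (difference 0.43 and 0.42, limma, adjusted p = 0.966 and 0.659). Its differences were both 0.26 when untreated replicate 2 was left out (limma, adjusted p = 0.462 and 0.953).

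The 12 negative acute phase genes were all measured and 0 passed. Their median log2 difference was 0.038 at 200 ng/ml and 0.074 at 800 ng/ml, with 6 and 8 of the 12 above untreated cells. Of all genes 54.1% and 54.6% were above. Without untreated replicate 2 the medians were 0.027 and 0.0038. In that fit 7 of the 12 were above untreated cells at either dose, against 47.2% and 48.2% of all genes. TF, transferrin, the iron carrier of plasma, had log2 signals of 11.29, 10.97 and 11.28 in untreated cells, 10.84, 10.98 and 10.91 at 200 ng/ml and 11.22, 11.18 and 11.17 at 800 ng/ml. The 800 ng/ml arrays lay above all 200 ng/ml arrays, as they did for 12.1% of all genes, with a difference of 0.28 ± 0.18 (SE, limma, adjusted p = 0.999). FETUB, SERPINA6 and IGF1 were the other genes with the smallest p-values of the list. FETUB and SERPINA6 had differences of 0.37 and 0.34 at 200 ng/ml against untreated, and IGF1 had −0.56 at 800 ng/ml against untreated. Without untreated replicate 2 the same differences were 0.19 for FETUB, 0.0097 for SERPINA6 and 0.0072 for IGF1, whose sign turned. The TF difference at 200 ng/ml against untreated was −0.27 with all 9 arrays. Without untreated replicate 2 it was −0.37 ± 0.11 (SE, limma, adjusted p = 0.323). In that fit TF was the 1 gene of the list lower there at an unadjusted p under 0.05, against 6.03% of all genes.

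**Figure D4:**
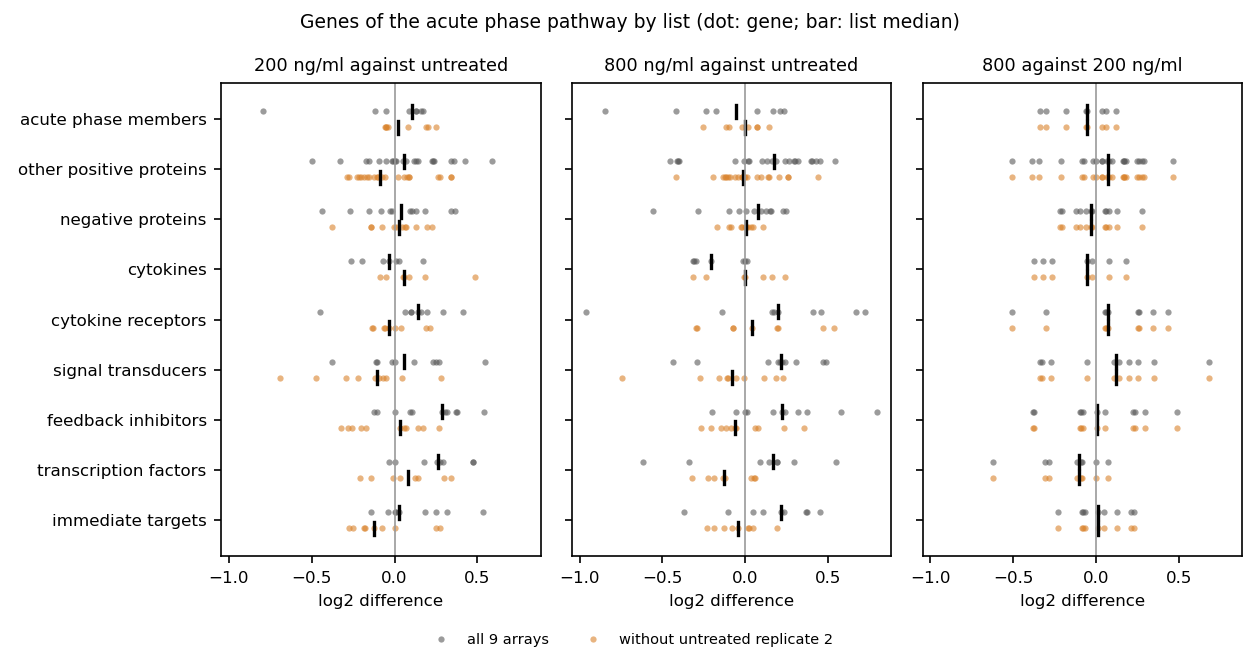
Log2 differences of single genes (dots) and list medians (bars) for the members and 8 further lists of the acute phase pathway in the 3 comparisons, with all 9 arrays (grey, upper row of each pair) and without untreated replicate 2 (orange, lower row). The list of other positive proteins has a median of 0.17 in the middle panel when all arrays are used, and of −0.013 when that array is left out.

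Upstream of the members, 7 cytokine genes, 9 receptors and 10 signal transducers were measured, and 0 passed in any comparison. IL6, the main inducer of the response, had log2 signals of 3.03, 3.03 and 3.14 in untreated cells, 3.26, 2.84 and 2.89 at 200 ng/ml and 3.27, 2.89 and 3.08 at 800 ng/ml. Those groups overlapped. Among the cytokines with the smallest p, IL11 and LIF, both of which signal through gp130, had differences between the doses of −0.38 ± 0.26 and −0.32 ± 0.23 (SE, limma, adjusted p = 0.999 for each). IL1A and OSM had −0.30 ± 0.20 and −0.31 ± 0.29 at 800 ng/ml against untreated (SE, limma, adjusted p = 0.659 and 0.661). With untreated replicate 2 left out, OSM had 0.00029 and IL1A −0.32 in that comparison. The IL11 log2 signals were 5.76, 6.69 and 5.72 in untreated cells and 6.45, 6.10 and 6.13 at 200 ng/ml. At 800 ng/ml they were 5.74, 5.99 and 5.81. The IL11 difference at 200 ng/ml against untreated was 0.17, and 0.49 without untreated replicate 2. In that fit 1 of the 7 cytokine genes was higher there at an unadjusted p under 0.05, against 5.29% of all genes.

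The signals of the subunits that receive interleukin-6 overlapped among the groups. IL6R, the binding subunit, had log2 signals of 6.93, 6.22 and 7.12 in untreated cells, 6.83, 7.02 and 6.86 at 200 ng/ml and 6.73, 7.09 and 7.04 at 800 ng/ml. IL6ST, which codes for gp130, had 8.86, 8.21 and 8.96 in untreated cells, 8.55, 8.94 and 8.83 at 200 ng/ml and 8.88, 8.81 and 8.82 at 800 ng/ml. In both genes untreated replicate 2 was the lowest array, and the other untreated arrays lay within the range of the treated ones or just above it. IL6, IL6R, IL6ST and STAT3 are given as the core of the pathway and not for their p-values.

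IL1RAP, the accessory chain of the interleukin-1 receptor, was the 1 of 9 receptors with an unadjusted p under 0.05 at 800 ng/ml against untreated, where 1.53% of all genes were higher at that threshold. It had log2 signals of 5.68, 4.92 and 5.68 in untreated cells, 5.77, 5.72 and 5.67 at 200 ng/ml and 6.36, 5.90 and 6.20 at 800 ng/ml. Every 800 ng/ml array was above all other arrays. Over all genes 6.08% lay apart and higher at 800 ng/ml against untreated, and 12.1% against 200 ng/ml. The IL1RAP difference was 0.72 ± 0.24 from untreated and 0.43 ± 0.24 from 200 ng/ml (SE, limma, adjusted p = 0.659 and 0.999). When untreated replicate 2 was left out, those differences were 0.47 ± 0.14 and 0.43 ± 0.13 (SE, limma, adjusted p = 0.894 and 0.218). In that setting the unadjusted p was 0.00943 and 0.00822, and 5.36% and 15.3% of all genes were then under 0.05.

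STAT3, the transcription factor of the pathway, had log2 signals of 8.02, 7.10 and 7.997 in untreated cells, 7.84, 7.92 and 8.06 at 200 ng/ml and 8.08, 8.14 and 8.36 at 800 ng/ml. The 800 ng/ml arrays lay above both other groups, the lowest of them by little. Over all genes 6.08% lay apart and higher at 800 ng/ml against untreated, and 12.1% against 200 ng/ml. The STAT3 difference from untreated was 0.49 ± 0.25 (SE, limma, adjusted p = 0.659), or 0.18 ± 0.13 without untreated replicate 2 (SE, limma, adjusted p = 0.971). RELA, a subunit of NF-kappaB, had 8.67, 8.56 and 8.70 at 200 ng/ml, against 8.44, 7.55 and 8.29 in untreated cells. Its difference was 0.55 ± 0.24, the 1 signal transducer with an unadjusted p under 0.05 there, where 0.741% of all genes were higher at that threshold (SE, limma, adjusted p = 0.966). Once untreated replicate 2 was left out it was 0.28 ± 0.12, and 0 signal transducers were higher and 2 lower at that threshold (SE, limma, adjusted p = 0.441). Over all genes 5.29% were higher and 6.03% lower in that fit.

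Of 11 measured feedback inhibitors other than SOCS3, 0 passed. PIAS3, an inhibitor of STAT3 binding to DNA, was the 1 with an unadjusted p under 0.05 at 800 ng/ml against untreated, where 1.53% of all genes were higher at that threshold. It had log2 signals of 6.41, 6.40 and 6.54 at 800 ng/ml, against 5.98, 5.42 and 6.22 in untreated cells (difference 0.58 ± 0.23, SE, limma, adjusted p = 0.659), and without untreated replicate 2 the difference was 0.35 ± 0.15 (SE, limma, adjusted p = 0.921). SOCS1, another inhibitor of JAK kinases, was chosen after its values were seen. It had 4.85, 4.55 and 4.94 in untreated cells, 5.09, 5.10 and 5.28 at 200 ng/ml and 4.85, 4.996 and 4.49 at 800 ng/ml. Its 800 ng/ml arrays all lay below the 200 ng/ml arrays (difference −0.38 ± 0.20, SE, limma, adjusted p = 0.999). Between the doses 2 of the 11 inhibitors, SOCS1 and NFKBIA, were apart and lower at 800 ng/ml, as were 9.72% of all genes, and 3, PIAS3, PTPN1 and PTPN11, were apart and higher, as were 12.1%. Of 8 measured transcription factors and 9 immediate targets of interleukin-6, also 0 passed. CEBPA had a log2 difference of 0.47 ± 0.24 at 200 ng/ml against untreated (SE, limma, adjusted p = 0.966). At 800 ng/ml against untreated ONECUT1 had 0.30 ± 0.24, CEBPD −0.34 ± 0.22 and CEBPE, a myeloid relative, −0.62 ± 0.35 (SE, limma, adjusted p = 0.659 for each). These 4 differences were smaller in size without untreated replicate 2, at 0.34 for CEBPA, 0.037 for ONECUT1, −0.19 for CEBPD and −0.32 for CEBPE. Among the immediate targets, EGR1 had 0.53 ± 0.25 at 200 ng/ml against untreated, and BCL6, FOS and MYC had 0.38 ± 0.26, −0.37 ± 0.32 and 0.37 ± 0.34 at 800 ng/ml against untreated (SE, limma, adjusted p from 0.659 to 0.966). With untreated replicate 2 left out, EGR1 had 0.28, BCL6 0.049, FOS 0.019 and MYC −0.13, so the signs of FOS and MYC turned.

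The genes whose profile over the arrays was most like a member were ranked by Pearson correlation across all other genes, as a description. For SOCS3 over 9 arrays they were ERVMER34-1, SMIM1 and MATN1 with r = 0.895, 0.888 and 0.881. Over the 8 arrays without untreated replicate 2 they were KRTAP25-1, HSH2D and GJD4 with r = 0.972, 0.971 and 0.960. For CRP they were LRRC36, ZNF665 and ANKRD23 over 9 arrays (r = 0.967, 0.948 and 0.944), and LAT2, BBOX1 and SUPT20HL2 over 8 (r = 0.978, 0.975 and 0.968). For SAA1 the genes were LYPD5, CEMP1 and NPTX2 over 9 arrays (r = 0.973, 0.967 and 0.964), and NTN5, LYPD5 and RAPGEF3 over 8 (r = 0.971, 0.954 and 0.948).

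For HP they were ZFYVE16, PERP and PALM2AKAP2 over 9 arrays (r = 0.959, 0.957 and 0.941), and SEPHS2, GRID2IP and CTSL over 8 (r = 0.951, 0.945 and 0.941). Among these 4 rankings LYPD5 was the 1 gene named for the same member in both sets of arrays. The other 4 measured members were not ranked. These values are the highest among all other genes over few arrays, which share their array-wide differences.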

How the data were processed

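Total RNA of 9 HepG2 samples was measured on a 1-colour biotin array. The authors deposited 1 table of log2 signals for 21448 transcript clusters. The log2 scale was inferred from the range of the deposited values. The submitters' processing notes name R 3.0, and how the values were normalized, background-corrected or filtered is not given in these sources. The platform annotation gave 17709 clusters 1 symbol, 0 several and 3739 none; RefSeq names (GRCh38.p14) changed 0 symbols. The brightest cluster per gene was kept, leaving 17687 genes.

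A single limma model (version 3.58.1, R 4.3.3, lmFit and eBayes) covered the 3 groups on the deposited values, with Benjamini-Hochberg adjustment over all genes, and intervals are 95% intervals of that fit. The procedure was tested on simulated data whose means and spread came from the arrays without untreated replicate 2. At 800 ng/ml against untreated, the median SE over all genes was 0.156 without that array and 0.245 with all 9 arrays. The simulation therefore does not give the power of the main test. The number of arrays limits the precision. The members and lists were chosen with earlier results of these data known. List genes were named for an unadjusted p under 0.05 or, in lists with none, as up to 4 with the smallest p. IL6, IL6R, IL6ST, STAT3, HPR, SERPINA3, SOCS1, NFKBIA, PTPN1 and PTPN11 stand outside this rule, as do the cell type markers. Alternatives covered normalization, filters, the prior, blocking on the replicate number, weighting arrays and dropping each array.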

Additional observations from a re-analysis of the deposited data

How the results depend on the processing

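No member passed the test under any alternative, so the number of members called stayed at 0 in each comparison. Of 243 member differences under settings other than leaving out 1 array, 219 kept their direction and 24 turned. With 1 array left out, 198 of 216 kept it and 18 turned, and none was called. Most turned values lay close to 0. The cause was not tested. Quantile normalization gave −0.042 for ORM2 and 0.027 for LBP at 200 ng/ml against untreated, −0.0042 for ORM1 at 800 ng/ml against untreated, and 0.039 for HPX and −0.0084 for ORM1 between the doses. Array weights gave 0.039 for SAA1, 0.13 for HPX and 0.060 for LBP at 200 ng/ml against untreated, −0.039 for HP at 800 ng/ml against untreated, and 7.9e-05 for CRP and −0.072 for HP between the doses. They called 1971, 732 and 6 of all genes in the 3 comparisons, against 0 without them, and gave untreated replicate 1 a weight of 10.7 and untreated replicate 2 one of 0.0399. Leaving out 800 ng/ml replicate 1 called 12 genes against untreated and 15 between the doses. Both further settings were chosen after seeing the data and leave out untreated replicate 2. Array weights on those 8 arrays gave 0.20 for SAA1, 0.15 for HPX, −0.00082 for ORM1 and 0.21 for LBP at 200 ng/ml, −0.045 for HP and 0.068 for LBP at 800 ng/ml against untreated, and 0.00037 for CRP and −0.078 for HP between the doses. Quantile normalization of them gave 0.13 for SAA1 and 0.24 for LBP at 200 ng/ml, 0.058 for LBP at 800 ng/ml against untreated, and 0.037 for HPX and −0.0098 for ORM1 between the doses.

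With each array left out in turn, the member differences that changed sign ran over the following ranges. At 200 ng/ml against untreated they were −0.026 to 0.25 for CRP, −0.35 to 0.19 for SAA1, −0.042 to 0.28 for HP, −0.059 to 0.23 for ORM1, −0.054 to 0.19 for ORM2, −0.29 to 0.25 for LBP and −0.026 to 0.28 for SOCS3. At 800 ng/ml against untreated they were −0.033 to 0.14 for CRP, −0.022 to 0.27 for ORM1 and −0.47 to 0.069 for LBP. Between the doses they were −0.18 to 0.094 for CRP, −0.12 to 0.21 for HP, −0.33 to 0.17 for HPX and −0.038 to 0.10 for ORM1.

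With the replicate number as a block, 0 members were called in each comparison. In this balanced design a block cannot move a difference of group means, only its error: the HPX difference of −0.84 at 800 ng/ml against untreated had an SE of 0.43 under the block (limma, adjusted p = 0.679). No label states that the numbers pair the arrays. Same-numbered arrays had deviations from their group means correlated at −0.25 to 0.11, and 1 of 9 pairs was over 0.1. With 3 arrays in a group and untreated replicate 2 apart, these correlations cannot decide whether a pairing exists. A floor on the size of change could only return 0, since no member passed without it. CRP and LBP gave no value without the dimmest 25% of genes, nor CRP, LBP, SAA1, HPX and SOCS3 without the dimmest 50%. The pseudocount alternative was not run because the values were already on a log scale.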
